A study of Arabidopsis thaliana with 12 samples.

Results

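The interaction of the val1 and val2 mutations was examined in whole 14-day-old Arabidopsis thaliana seedlings, using all 12 of the 12 RNA libraries of the series. The 4 genotypes had 3 libraries each, which the design text calls biological replicates: the val1 val2 double mutant, the val1 single mutant, the val2 single mutant and the wild type (WT). No allele, promoter or transgene is named in the labels, and every group was grown alike, on plates with 1% sucrose and 0.6% agar, first for 3 days at 4 °C in the dark and then at 22 °C with 16 h light and 8 h dark. The interaction of a gene is the change of the double mutant from WT minus the sum of the changes of the single mutants from WT, on a log2 scale. A value of 0 means that the single-mutant folds multiply in the double mutant. A positive value means that the double mutant stood above that product, and a negative value that it stood below.

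VAL1 (AT2G30470) and VAL2 (AT4G32010) are closely related repressors of transcription that bind RY elements in DNA through a B3 domain, and they recruit Polycomb complexes and histone deacetylases to their targets. Known targets include the seed maturation regulators of the LEC1, ABI3, FUS3 and LEC2 network and the floral repressor FLC. VAL proteins shut the embryo program down as a seedling begins to grow, and the relatives are known to overlap in function, so the design asks where the loss of both departs from what each loss does alone.

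Levels are given in FPKM, a unit that corrects fragment numbers for the length of the transcript and the size of the library. Each gene's level was computed here as the sum over its assembled loci of the deposited FPKM times the share of the gene covered. Where a library's assembly placed no locus on a gene, the gene is listed at 0 there. No fold is given against a group listed at 0, and the interaction of such a gene is on the FPKM + 1 scale, so that its size depends on the added 1. Of the 27444 protein-coding genes of the reference, 17550 entered the fit. Libraries held 19164 to 20293 loci, and the files give no read counts. In the 3 double-mutant libraries 14.8%, 14.8% and 10.9% of the summed FPKM came from the top 10 loci, against 5.51% to 7.75% in the other 9. The median SD within a group, on the log2(FPKM + 1) scale, was 0.264 in val1 val2, 0.135 in val1, 0.124 in val2 and 0.141 in WT. The tissue label held in WT, where carbonic anhydrase CA1, an abundant leaf enzyme, stood at 836 to 948 FPKM and the embryo regulator FUS3 had no locus.

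The targeted genes themselves did not bear out the labels in every library. VAL1 stood at 13.2, 11.1 and 22.6 FPKM in val1 val2, at 12.7, 5.18 and 5.07 FPKM in val1, at 17.8, 15.2 and 16.4 FPKM in val2 and at 14.5, 17.7 and 17.3 FPKM in WT. Before weighting by the share of the gene covered, its deposited locus had 26.6, 22.3 and 24.3 FPKM in val1 val2. In WT that locus had 15.3, 18.3 and 18.1 FPKM, so the order of these 2 genotypes depends on the weighting. On chromosome 2 (TAIR10), the locus over VAL1 began at position 12982816 in val1 val2 replicates 1 and 2 and was broken before it in val1 replicates 2 and 3, whereas it ran unbroken across it in val1 val2 replicate 3 and val1 replicate 1. VAL2 stood at 12.7, 13.2 and 12.6 FPKM in val1 val2, at 14.4, 11 and 15.2 FPKM in val1, at 9.73, 11.3 and 10.4 FPKM in val2 and at 21.8, 22 and 17.7 FPKM in WT. Its locus was cut short in val1 val2 replicate 1 and val2 replicate 3, broken in val2 replicate 2, and unbroken in val1 val2 replicates 2 and 3 and val2 replicate 1. A transcript can also cross a lesion, and no label says where the lesions lie, so genotypes are named here by their labels. Without val1 replicate 1 and val1 val2 replicate 3 the interaction was called for 8996 genes, with 3986 higher and 5010 lower, against the 8197 reported next.

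The double mutant departed from the product of the single-mutant folds at 8197 genes, 46.7% of those tested (limma, Benjamini-Hochberg adjusted p under 0.05 over all genes fitted). Of these, 3751 stood above the product (21.4% of all genes tested) and 4446 below it (25.3%). A departure of at least 2-fold was called at 5582 genes (31.8%), with 2759 higher (15.7%) and 2823 lower (16.1%). By comparison, val1 was called against WT at 692 genes (3.94%), val2 at 798 (4.55%) and val1 val2 at 10352 (59.0%). Neither single mutant was called at 7263 of the 8197 genes (88.6%), 1 was called at 787 and both were called at 147. On the untransformed FPKM scale, where 0 means that single-mutant differences add, the interaction kept its sign at 8195 of the 8197 genes, the exceptions being GA3OX1 and RBL14, which were looked up after this count was seen. As whole seedlings were sequenced, more or fewer cells of a type and more or less RNA per cell cannot be told apart in any of these values.

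Grouped by how the 4 genotypes were ordered, 2976 of the called genes had a double mutant called above val1, val2 and WT, and 3654 had it called below all 3. Over all genes tested, the double mutant was called higher than val1 at 25.7%, than val2 at 25.1% and than WT at 24.6%, and lower than val1 at 32.5%, than val2 at 34.8% and than WT at 34.3%. Another 42 genes were lower in both single mutants with a positive interaction, and 39 were higher in both with a negative one. In 3 genes the single mutants were called in opposite directions, and 1483 genes fell in none of these patterns. The contrasts share libraries, so these counts describe the calls and are no further test, and the small classes moved with single libraries: leaving out each of the 12 in turn gave 20 to 111 shared falls and 20 to 64 shared rises, the most without val1 val2 replicate 3. Of the 2759 genes at least 2-fold higher, 486 had no locus in any of the 9 other libraries, and of the 2823 at least 2-fold lower, 166 had none in the 3 double-mutant libraries. The 486 could enter the fit only with at least 1 FPKM in all 3 double-mutant libraries, so their separation was fixed by the filter. Among 15989 genes with values in all 12 libraries, all 3 double-mutant values lay above the other 9 in 3464 (21.7%) and below them in 4403 (27.5%). In the other direction, the 95% interval of the interaction lay within ±0.5 at 841 genes, and 283 of these were called in the double mutant against WT.

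**Figure D1:**
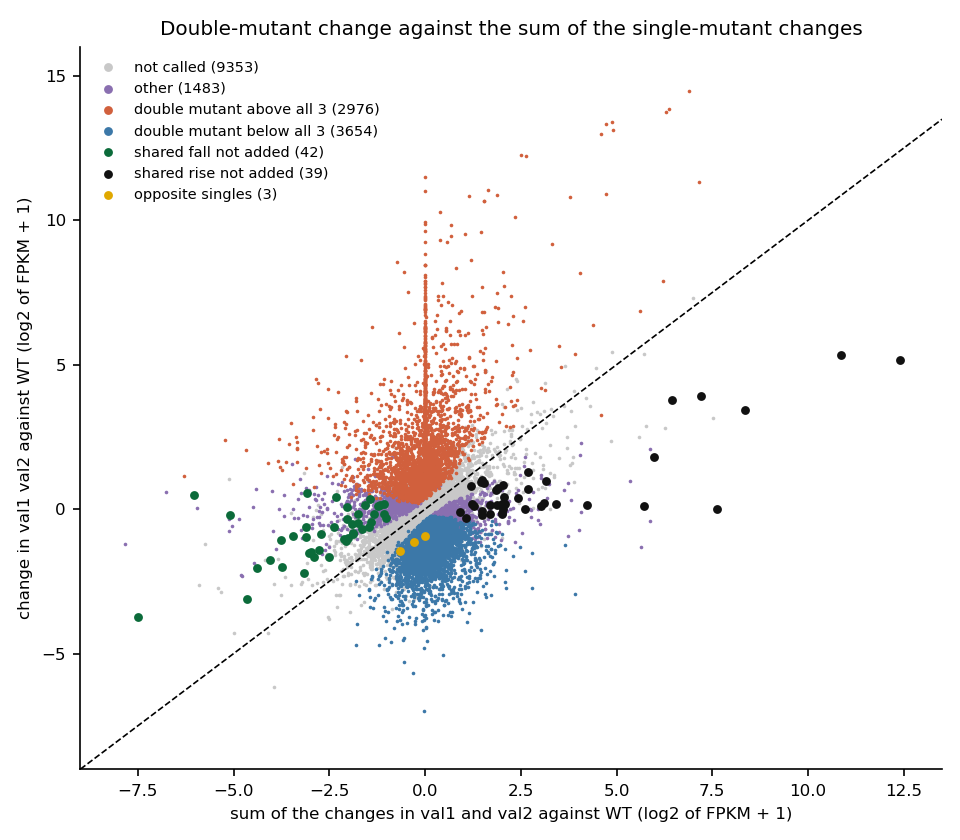
Each point is 1 of the 17550 genes, with the sum of the changes in val1 and val2 against WT on the horizontal axis and the change in val1 val2 against WT on the vertical axis, both as differences of log2(FPKM + 1), and the dashed line marks an interaction of 0. Colours give the pattern of the call, and most of the 2976 genes above all 3 genotypes and of the 3654 below them have a single-mutant sum near 0, while the 39 shared rises lie far to the right of the line.

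Most transcription factors that run seed development were higher in the double mutant than the single mutants would give. Of 14 fitted members of the seed regulator list, 11 were called higher and 2 lower, against 21.4% and 25.3% of all genes, and the median interaction was 3.23, against -0.12 over all genes. In val1 1 of the 14, AGL15, was called higher than WT, and in val2 none was. FUS3 (AT3G26790), a B3 activator of seed maturation, stood at 89.9, 79.6 and 66.8 FPKM in val1 val2 and was listed at 0 in all 9 other libraries, with an interaction of 6.31 (SE 0.17, limma adjusted p = 2.47e-09). ABI3 (AT3G24650), the B3 factor that mediates abscisic acid responses in seeds, stood at 41.6, 44.6 and 29.3 FPKM in val1 val2 and was likewise listed at 0 elsewhere (interaction 5.28, SE 0.21). Of the 14 fitted members, 5 had no locus in the other 9 libraries, these 2 included. Such genes enter the fit only with at least 1 FPKM in all 3 double-mutant libraries. Their separation from the other 9 was thus fixed by the filter and is no further support. DOG1 (AT5G45830), which sets seed dormancy, had 138, 105 and 49.8 FPKM in val1 val2, against 0, 1.03 and 0.931 FPKM in val1 and no locus in val2 or WT (interaction 5.85, SE 0.49). The size of these values rests on the added 1: for FUS3 it was 9.61 with 0.1 FPKM added and 4.06 with 5 FPKM added, and it was 6.42 without val1 replicate 1 and val1 val2 replicate 3.

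Other members of the list, chosen after their values were seen, spread over more of the network. LEC1, the NF-Y subunit at the head of embryo identity, stood at 18.7, 15 and 14.2 FPKM in val1 val2 and had no locus in the other 9 libraries. The same absence outside the double mutant held for ABI4, at 22.3, 20.4 and 14.5 FPKM, and for bZIP67, at 41.5, 37.6 and 27.9 FPKM. BBM, an AP2 factor that can start embryo formation, had 38.9, 28.6 and 21.8 FPKM in val1 val2, against at most 1 FPKM in any other library, and its interaction was 3.56 (SE 0.31, limma adjusted p = 7.81e-06). WRI1, an activator of oil synthesis, had 49.8, 52.5 and 25.4 FPKM in val1 val2, against 4.53 to 4.98 FPKM in WT, where it was thus already expressed (interaction 2.05, SE 0.32). The 2 members below the product were bZIP25 (interaction -0.64) and the MADS factor AGL18 (-1.21), and bZIP53 was not called. Another 5 members, L1L, LEC2, EEL, MYB115 and MYB118, did not enter the fit.

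Genes of the products that fill a seed had the highest medians of the 20 lists. All 12 fitted storage protein genes were called higher, with a median interaction of 8.30, as were 10 of 13 oil body genes (1 lower, median 6.89) and all 20 fitted late embryogenesis genes (median 6.05), against 21.4% of all genes higher and 25.3% lower. Of the fitted members, 1 storage, 4 oil body and 8 late embryogenesis genes had no locus in the other 9 libraries. They entered the fit only through the double mutant. The 2S albumin gene SESA5 (AT5G54740) had 6880.4, 5304 and 2983 FPKM in val1 val2, 3.53, 4.04 and 4 FPKM in val1, 0, 1.08 and 0 FPKM in val2, and no locus in WT. The 12S globulin gene CRB (AT1G03880) was much the same, with 2653, 2356 and 1496 FPKM in val1 val2, 1.84, 2.46 and 2.09 FPKM in val1 and no locus in val2 or WT. OLEO2 (AT5G40420), an oleosin that coats oil bodies, had 8019, 5217 and 2764 FPKM in val1 val2, 5.16, 4.61 and 4.38 FPKM in val1, and no locus in val2 or WT. Its interaction was 9.74 (SE 0.41, limma adjusted p = 4.27e-08), and the single change in val1 also passed (limma adjusted p = 0.000623). A low but called level in val1 was common here: val1 was called higher than WT for 10 of the 12 storage genes and val2 for 5, against 2.21% and 1.81% of all genes. In val1 these genes reached a median of 0.111% of the double-mutant level, and in val2 a median of 0.00898%.

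The 12 largest positive interactions ran from 9.25 to 11.49, where 6 genes belonged to the storage, oil body or late embryogenesis lists and the other 6 had no locus outside the double mutant. The largest was AT5G38160, with 4314, 3960.1 and 1404 FPKM in val1 val2 and no locus elsewhere, and its neighbour AT5G38170 followed at 9.93. AT4G33145 (11.02), LCR67, a plant defensin also called PDF1.1 (9.88), MEE26 (9.62) and AT1G04560 (9.25) were the other 4 of that kind. TIP3;1, a water channel of seed vacuoles, reached 1609.7, 1492 and 797 FPKM in val1 val2, but a locus of a neighbouring gene reached into it in the 8 libraries where it was listed at 0, so that its value there is uncertain. The cupin genes AT2G28490 (9.70) and AT4G36700 (9.29) completed the 12 with SESA5, CRB and OLEO2. Within the oil body list, enzymes that make storage oil in all tissues had no called positive interaction. DGAT1 (0.98) and DGAT2 (0.21) were not called, and PDAT1 was lower (-0.83), whereas the seed fatty acid elongase FAE1 was higher (6.73). Both DGAT genes were still among the 12 of 13 fitted members called higher in val1 val2 than in WT, against 24.6% of all genes.

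**Figure D2:**
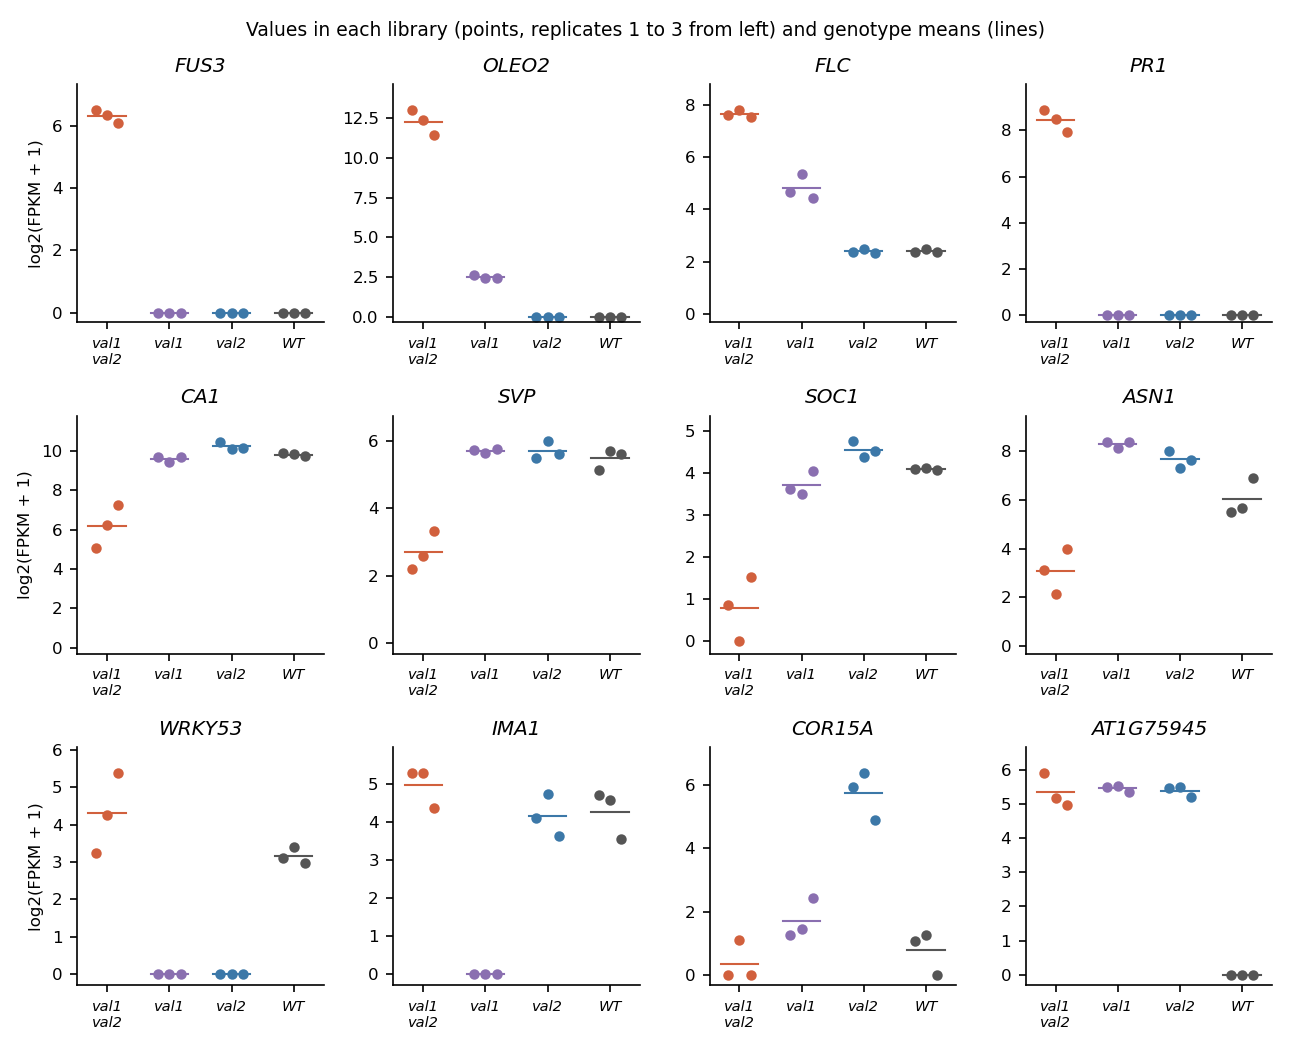
Points are the values of each of the 12 libraries as log2(FPKM + 1) for 12 genes, with val1 val2, val1, val2 and WT from left to right, and lines are genotype means. The upper row shows genes whose double mutant lay above the other 3 genotypes (FUS3, OLEO2, FLC, PR1), and the middle row genes whose double mutant lay below them (CA1, SVP, SOC1, ASN1). The lower row shows WRKY53, with no locus in val1 or val2 and the double mutant also called above the other 3 genotypes. Beside it are IMA1 with no locus in val1, COR15A highest in val2, and AT1G75945 alike in the 3 mutants with no locus in WT.

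FLC was called higher in val1 alone among the single mutants, and higher still in the double mutant. FLC (AT5G10140), the MADS repressor of flowering, stood at 195, 221 and 184 FPKM in val1 val2, at 24.5, 39.5 and 20.9 FPKM in val1, at 4.24, 4.56 and 4.02 FPKM in val2 and at 4.18, 4.59 and 4.16 FPKM in WT. The double mutant lay above every val1 library, val1 above every val2 and WT library, and val2 overlapped WT. Multiplied single-mutant folds would put the double mutant at 27.1 FPKM, and the interaction was 2.83 (SE 0.27, limma adjusted p = 1.64e-05), with 2.82 when val1 replicate 1 and val1 val2 replicate 3 were left out. AGL15, a MADS factor of embryos from the seed regulator list named after its values were seen, was also highest in the double mutant and next in val1, with 93.8, 81 and 55.2 FPKM in val1 val2, 18.6, 17.1 and 14.6 FPKM in val1, a mean of 3.37 FPKM in val2 and a mean of 3.06 FPKM in WT (limma adjusted p of the interaction = 0.000144, higher).

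Some genes that rose in val1 had no called departure from the product. Chosen after their values were seen, MAF5 and the Polycomb ring-finger genes BMI1A and BMI1B were called higher in val1 and in val1 val2 against WT, while their interactions were not called. MAF5, an FLC relative, averaged 33.9 ± 3.44 FPKM in val1 val2, 35.4 ± 2.69 FPKM in val1, 7.7 ± 0.756 FPKM in val2 and 10.2 ± 0.476 FPKM in WT (SD, n = 3 each). Its interaction of 0.30 had a 95% interval of -0.05 to 0.65 (limma adjusted p = 0.141). BMI1A averaged 30.1 ± 3.35 FPKM in val1 val2, 19.8 ± 2.14 FPKM in val1, 7.97 ± 0.845 FPKM in val2 and 6.67 ± 0.165 FPKM in WT, with an interaction of 0.35 and an interval of -0.03 to 0.73. For BMI1B the interaction was -0.11, with an interval of -0.53 to 0.30. The test did not separate these 3 values from 0, and the intervals bound any departure to less than that of FLC.

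Among 15 fitted flowering time genes, 2 were called higher and 6 lower, against 21.4% and 25.3% of all genes. SVP (AT2G22540), the MADS partner of FLC, stood at 3.58, 4.97 and 9.02 FPKM in val1 val2, at 51.5, 48.6 and 52.8 FPKM in val1, at 43.7, 62.1 and 47.5 FPKM in val2 and at 33.6, 50.9 and 47.8 FPKM in WT. Neither single mutant was called, the double mutant lay below all 9 other libraries, and the interaction was -3.21 (SE 0.37, limma adjusted p = 6.25e-05). SOC1 (AT2G45660), a floral activator repressed by FLC, had 0.81, 0 and 1.89 FPKM in val1 val2, 11.3, 10.4 and 15.5 FPKM in val1, 26.2, 19.9 and 22.1 FPKM in val2 and 16.3, 16.4 and 15.8 FPKM in WT (interaction -3.39, SE 0.44). The other called floral regulators were TEM1 (-1.55), TEM2 (-1.04), SPL9 (-0.86) and MAF3 (-0.78) on the low side. GI, a clock gene, was the remaining positive one (3.22, SE 0.85), and here the WT libraries disagreed: GI stood at 5.25, 6.09 and 5.31 FPKM in val1 val2, at 2.93, 2.41 and 2.71 FPKM in val1, at 1, 1.15 and 1.17 FPKM in val2 and at 40.8, 5.23 and 4.16 FPKM in WT, and without WT replicate 1 its interaction was 2.26 and still called. Among 7 fitted floral identity genes, SEP2 (2.44) and SEP1 (1.45) were higher, with no locus outside the double mutant, and SEP4 was lower (-1.61), with no locus in the double mutant.

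Photosynthesis genes lay almost all below the product of the single-mutant folds. Of 36 fitted members 32 were called lower and none higher, against 25.3% and 21.4% of all genes, with a median interaction of -2.13. In val1 2 of the 36 were called and in val2 1, each of them higher than in WT, against 2.21% and 1.81% of all genes. CA1 (AT3G01500), the chloroplast carbonic anhydrase, had 31.9, 75.3 and 149.6 FPKM in val1 val2, 809, 680.0 and 807 FPKM in val1, 1406, 1104 and 1112 FPKM in val2 and 948, 908 and 836 FPKM in WT. All 3 double-mutant values lay below the other 9, the product of the single-mutant folds was 1021 FPKM, and the interaction was -3.82 (SE 0.58, limma adjusted p = 0.000398). The photorespiratory enzymes HPR1 (-3.51, from 2 double-mutant libraries, as replicate 3 had no usable value) and GLDP1 (-2.92) came next. RBCS1A, the small subunit of Rubisco, averaged 1978 FPKM in val1 val2 and 8277 FPKM in WT (interaction -2.25), though its near-identical relatives make its own level uncertain, as they do for the LHCB genes. The 4 members not called were LHCB2.1, LHCB2.2, CAO and PORC.

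The double-mutant libraries did not give this response in the same size. With each of them taken alone, the median interaction of the photosynthesis list was -2.74 for replicate 1, -2.28 for replicate 2 and -1.29 for replicate 3, the library with the unbroken VAL1 locus. The medians of the storage list lay closer together, at 8.55, 8.50 and 7.92, although their size rests on the added 1. Touch and defence genes ran the other way, at 2.93, 3.83 and 4.14. Replicate 3 was also the library with the lowest share of FPKM in its 10 most abundant loci among the double mutants, 10.9%, and the part of either feature in these differences was not tested.

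**Figure D3:**
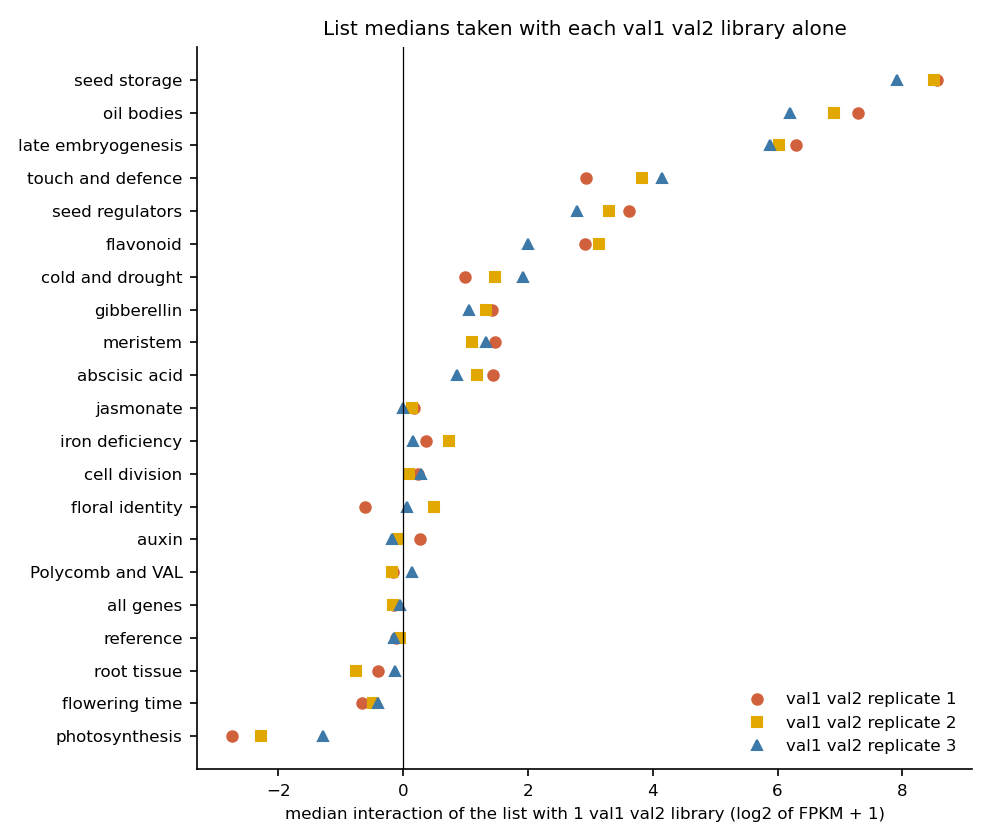
Each row is a gene list, or all genes, and each symbol the list's median interaction in log2 units with 1 of the 3 val1 val2 libraries in place of their mean. The 3 symbols fall on both sides of 0 for the floral identity, Polycomb and VAL, auxin and jasmonate lists. They fall on the same side for every other list and for all genes, and photosynthesis runs from -2.74 to -1.29.

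The most negative interactions were a mixed set in which the single mutants were often above WT. ASN1 (AT3G47340), the asparagine synthetase gene that is switched on by darkness and sugar shortage, stood at 7.77, 3.38 and 14.8 FPKM in val1 val2, at 331, 282 and 334 FPKM in val1, at 255, 158 and 200.0 FPKM in val2 and at 44, 50.1 and 118 FPKM in WT. Both single mutants lay above every WT library and the double mutant below all of them, although only the rise in val1 passed (limma adjusted p = 0.0178, against 0.0722 in val2). The product of the single-mutant folds was 979 FPKM, and the interaction of -6.85 (SE 0.64, limma adjusted p = 1.41e-05) was -7.27 without the 2 libraries whose VAL1 locus was unbroken. XTH6, a xyloglucan-modifying enzyme of the cell wall, had 6.54, 10.7 and 23.8 FPKM in val1 val2, 125, 123 and 129 FPKM in val1, 90.1, 94.9 and 86 FPKM in val2 and 20.7, 30.1 and 40.8 FPKM in WT (interaction -4.87, SE 0.51). AT2G20670 (-4.76) also had val1 and val2 above WT and the double mutant below it, with val2 the highest. The dormancy-associated gene AT2G33830, also called DRM2, averaged 73.4 FPKM in val1 val2, 1492 FPKM in val1, 1414 FPKM in val2 and 981 FPKM in WT (-5.01).

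Elsewhere among the 12 most negative, FBA5 (-5.36), an aldolase gene, and WRI4 (-5.66), an activator of cuticular wax synthesis, had low values in the double mutant alone. FBA5 had 0.426, 0.767 and 2.27 FPKM in val1 val2, against 47.1 to 66.8 FPKM in val1, 135 to 160.0 FPKM in val2 and 94.5 to 108 FPKM in WT. AT2G04039 (-4.80), AT4G26288 (-4.83) and the thionin gene AT1G66100 (-5.55) had no locus in the double mutant. A neighbouring locus reached into AT2G04039 in 2 of those 3 libraries and into AT4G26288 in 1, so their values there are uncertain. ASN1, FBA5, WRI4, AT2G04039 and AT4G26288 overlap another gene of the reference, and since the counting is not stated to use strand, fragments of the partners cannot be told apart.

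Defence and touch genes mostly stood above the product of the single-mutant folds. Of 19 fitted members 15 were called higher and none lower, against 21.4% and 25.3% of all genes, with a median interaction of 3.68. The mean of both single mutants lay below WT in 12 of the 19, with 3 called lower in val1 and 6 in val2, against 1.74% and 2.74% of all genes. The double-mutant mean lay above WT in 17, with 12 called higher and 1 lower, against 24.6% and 34.3% of all genes. ZAT10, a zinc-finger factor of stress responses, had 32.2, 60.1 and 113 FPKM in val1 val2, 3.79, 10.6 and 4.77 FPKM in val1, 2.46, 3.69 and 2.45 FPKM in val2 and 10.7, 38.3 and 14.7 FPKM in WT (interaction 5.50, SE 0.74, limma adjusted p = 0.000185). TCH2, a calmodulin-like gene induced by touch, had 43.5, 61.5 and 84.3 FPKM in val1 val2, 17.2, 13 and 11.6 FPKM in val1, 10.5, 10.6 and 11.3 FPKM in val2 and 38.3, 41.6 and 26.7 FPKM in WT (interaction 3.68, SE 0.34). These 2 genes were picked after their values were seen, and in both every single-mutant library lay below every WT library. By the size of the interaction, PR1 (AT2G14610) led the list, a salicylic acid marker with 471, 364 and 243 FPKM in val1 val2 and no locus in the other 9 libraries (8.44, SE 0.27). PR2, a glucanase of the same response, had 62.4, 58.7 and 44.4 FPKM in val1 val2 and again no locus elsewhere (5.80). WRKY53 had 8.47, 18.1 and 41 FPKM in val1 val2, no locus in val1 or val2, and 7.55, 9.52 and 6.83 FPKM in WT (7.45). In all 6 of those single-mutant libraries a locus of the overlapping neighbour AT4G23800 reached into WRKY53. It did so in every val1 val2 and WT library too, beside a separate WRKY53 locus, and ended 1434 to 1490 bases before the end of the gene. The interaction of WRKY53 is uncertain.

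Gibberellin, abscisic acid and flavonoid genes had more calls above the product than below it. Among 13 fitted gibberellin genes 8 were called higher and 1 lower (median 1.35), against 21.4% and 25.3% of all genes. GA20OX3, a gibberellin synthesis enzyme, stood at 145, 118 and 82 FPKM in val1 val2 and had no locus in the other 9 libraries (interaction 6.82, SE 0.25). CPS (2.57) and GA20OX1 (2.34), earlier and parallel steps of the same synthesis, were also higher, as were the catabolic genes GA2OX2 (2.26) and GA2OX6. Of 15 abscisic acid genes 8 were higher and 1 lower (median 1.16), against the same shares of all genes, and these included enzymes of both synthesis and breakdown. NCED9, a synthesis enzyme of seeds, had 4.77, 6.89 and 6.79 FPKM in val1 val2 with no locus elsewhere (2.82). CYP707A2, which breaks the hormone down, had 24.2, 20.5 and 17.3 FPKM in val1 val2 against 0 to 1.53 FPKM in the other 9 libraries (3.40). CYP707A3 had an interaction of 4.18 (SE 0.84), but its double-mutant values of 3.7, 17.6 and 34.9 FPKM spread widely. They overlapped WT, at 8.23, 15.9 and 6.26 FPKM, and were not called against it (limma adjusted p = 0.498). Its single-mutant values lay below every WT library, at 3.62, 3.08 and 3.09 FPKM in val1 and 0.699, 1.43 and 0.862 FPKM in val2. Only val2 was called lower.

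Of 10 fitted auxin genes 2 were called higher and 3 lower, against 21.4% and 25.3% of all genes, so the list stood near the background. The higher ones were YUC4, a synthesis enzyme, at 15.4, 12.7 and 7.36 FPKM in val1 val2 and no locus elsewhere (3.62), and TAA1 (1.00), which acts a step earlier, while the efflux carriers PIN3 (-2.42), PIN4 (-2.49) and PIN7 (-1.92) were lower. In the flavonoid pathway 6 of 9 fitted genes were called higher and none lower (median 2.81), against 21.4% and 25.3% of all genes. F3H, which makes dihydroflavonols, had 156, 137 and 81.5 FPKM in val1 val2, 6.7, 5.22 and 6.37 FPKM in val1, 9.42, 7.26 and 7.35 FPKM in val2 and 11.1, 10.3 and 8.45 FPKM in WT (4.39, SE 0.31). CHS, the entry enzyme, stood at 217, 234 and 111 FPKM in val1 val2, above WT, and at 21.8, 16.2 and 16.1 FPKM in val1, below WT, while val2 had 81.2, 67.8 and 60.2 FPKM and WT 78.4, 59.8 and 51.5 FPKM (interaction 3.10). CHS is no member of the named set and was picked after its values were seen. The late anthocyanin genes DFR (0.38) and ANS (-0.01) had no called interaction. Against WT, all 9 fitted flavonoid genes, these included, were called higher in val1 val2, against 24.6% of all genes.

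Meristem genes included 6 of 10 called higher and 2 lower (median 1.27), against 21.4% and 25.3% of all genes. CUC1, a boundary gene, had 21.8, 14.2 and 12.6 FPKM in val1 val2, against 0 to 2.19 FPKM in the other 9 libraries (3.19, SE 0.38). CLV3, the stem cell peptide, had 8.17, 3.55 and 2.9 FPKM in val1 val2 and no locus elsewhere (2.45), and KNAT6 (2.05), STM (1.55) and WUS (1.44) were higher as well. Of 13 root genes 3 had an interaction called higher and 2 lower, near the shares of all genes. Against WT, val1 val2 was called lower for 9 of the 13 and higher for 3, against 34.3% and 24.6% of all genes. The stem cell niche genes WOX5 (2.24) and PLT2 (2.08) were higher, and CASP1, which builds the Casparian strip of the endodermis, was lower (-2.94), at 3.63, 2.1 and 9.54 FPKM in val1 val2, against 25.8 to 42.8 FPKM in val1, 35.6 to 37.7 FPKM in val2 and 27.6 to 31.7 FPKM in WT.

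Iron, cold and jasmonate genes showed interactions of both signs within a list. IMA1 (AT1G47400), a peptide gene that signals iron shortage, had 38.2, 38.8 and 19.6 FPKM in val1 val2, no locus in val1, 16.2, 25.7 and 11.5 FPKM in val2 and 25.3, 22.9 and 10.8 FPKM in WT. The double mutant overlapped val2 and WT, and the absence seen in val1 was not found in the double mutant (interaction 5.11, SE 0.51, limma adjusted p = 2.4e-05). Its neighbour and relative IMA2 (4.51) was likewise lowest in val1, at 1.95, 0 and 1.12 FPKM. IRT1, the iron importer of roots, went the other way, with no locus in val1 val2, 21.9, 6.37 and 12.6 FPKM in val1, 16.7, 27.3 and 20.7 FPKM in val2 and 29.5, 24.8 and 21.3 FPKM in WT (-3.49). Its regulator FIT also had no locus in val1 val2 and was likewise called below the product. Val1 was called lower than WT for 8 of the 14 iron genes, against 1.74% of all genes. Val1 val2 was also called lower than WT for 8 of the 14 and higher for 2, against 34.3% and 24.6% of all genes. Thus the levels of IMA1 and IMA2 in the double mutant do not stand for the list. The interaction was called higher for 4 of the 14 and lower for 2, against 21.4% and 25.3% of all genes.

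COR15A (AT2G42540), a cold-induced chloroplast protein, was called higher than WT in val2 and not in val1, at 0, 1.17 and 0 FPKM in val1 val2, 1.4, 1.75 and 4.47 FPKM in val1, 60.2, 81.8 and 28.4 FPKM in val2 and 1.13, 1.42 and 0 FPKM in WT (interaction -6.29, SE 0.70). COR15B, its near relative, had the same order (-4.73), and the assembly could share fragments between the pair. VSP2, a jasmonate storage protein named after its values were seen, likewise averaged 5.51 FPKM in val1 val2, 2.14 FPKM in val1, 55.6 FPKM in val2 and 4.2 FPKM in WT (-2.38). Thus the rise of these 3 genes in val2 was not present in the double mutant. Within the same lists KIN1 (2.66, with a near-identical relative, a call lost on leaving out any of 5 single libraries), CBF2 (2.38) and RD29B (2.25), and TAT3 (4.11), JAZ1 (3.70) and JAZ5 (3.21), were higher, giving 5 higher and 3 lower of 9 cold genes and 4 higher and 4 lower of 12 jasmonate genes. Over all genes 21.4% were higher and 25.3% lower, so the lower counts of both lists and the higher count of the jasmonate list were not far from the background.

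A smaller class of genes moved the same way in both single mutants, and the folds did not multiply in the double mutant. Among the 39 shared rises the double mutant was not called against WT in 23, and among the 42 shared falls in 14. Over all genes, val1 val2 was called against WT at 59.0%. AT1G75945 had 59.4, 34.9 and 30.5 FPKM in val1 val2, 44.1, 45.2 and 40 FPKM in val1 and 43.4, 44.1 and 36 FPKM in val2, with no locus in WT and no neighbouring locus reaching into it there. The 3 mutant groups overlapped, and the interaction was -5.50 (SE 0.29, limma adjusted p = 1.99e-07). AT3G29633 was the mirror image, with no locus in any of the 9 mutant libraries and 6.4, 15.2 and 19.2 FPKM in WT (3.75, SE 0.41). RAS1, a gene of abscisic acid and salt responses, had 1.34, 4.9 and 8.6 FPKM in val1 val2, no locus in val1 or val2, and 7.04, 7.48 and 1.93 FPKM in WT (4.90, SE 0.69). The double mutant of RAS1 overlapped WT.

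Assembly bears on other members of this class. GL2, a homeodomain factor of epidermal cells, had 2.24, 2.12 and 3.33 FPKM in val1 val2, 11.5, 7.53 and 7.26 FPKM in val1, 4.89, 5.78 and 6.16 FPKM in val2 and no locus in WT (-4.16). In all 3 WT libraries a locus of the overlapping AT1G79850 reached into GL2. That locus also reached in in every val1 val2, val1 and val2 library, beside separate loci of GL2. A neighbouring locus likewise reached into AT2G35658 (6.52) in the 6 single-mutant libraries, where it was listed at 0. Outside this class, AT5G19130 (6.01) had no locus in val1 replicates 1 and 2 or in val2, with a neighbouring locus reaching in there too, and its val1 value was not called against WT. AT2G43460 had 106, 100.4 and 96 FPKM in val1 val2, 1295, 1031 and 1199 FPKM in val1, 234, 1222 and 215 FPKM in val2 and 99.3, 82.2 and 98.9 FPKM in WT (-5.59). Its assembled locus began 214 to 228 bases inside the gene in the 4 libraries with the high values and 99 to 114 bases inside it in the other 8, so the high values go with another locus shape.

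The 3 genes with single mutants called in opposite directions, AT2G12190 (-0.91), AT3G12955 (-0.85) and AT3G24110 (-0.80), were low throughout and had no locus in val1 val2 or in the measured val1 libraries, with val2 above WT. They were named because there were only 3. RBL14 was the only gene of the 2976 above all 3 genotypes with a negative interaction (-1.31), and it had no locus in the 2 WT libraries with a value.

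Few Polycomb, VAL and cell division genes had a called interaction. Of 22 fitted Polycomb and VAL genes 3 had an interaction called higher and 4 lower, with a median of -0.07. The shares over all genes were 21.4% and 25.3%. Against WT, val1 val2 was called higher for 6 of the 22 and lower for 8. For the 11 fitted cell division genes these counts against WT were 6 and 0, against 24.6% and 34.3% of all genes. VIN3, which helps silence FLC after cold, had 6.65, 6.97 and 8.38 FPKM in val1 val2 and no locus elsewhere (3.05), although a neighbouring locus reached into it in 8 of those 9 libraries. CLF, a histone H3 lysine methyltransferase, stood at 3.61, 4.79 and 5.02 FPKM in val1 val2, at 7.82, 7.61 and 7.29 FPKM in val1, at 17.3, 11.4 and 10.1 FPKM in val2 and at 7.5, 7.7 and 7.26 FPKM in WT (-1.34), and VEL1, a VIN3 relative, was also lower (-1.70). VAL2 itself had an interaction of 0.84 (SE 0.19, limma adjusted p = 0.00424), that of VAL1 was 0.99 (SE 0.44, adjusted p = 0.0909) and that of VAL3, their relative, was -0.50 (adjusted p = 0.454). The VAL1 value passed without val1 replicate 1 (1.38, adjusted p = 0.00758). Among 11 cell division genes CDKB1;1 (0.74) and CDKB2;2 (0.59) were higher and CYCB1;2 was lower (-0.75, limma adjusted p = 0.0322), a call lost on leaving out any of 7 single libraries (adjusted p 0.0554 to 0.0773 over 10 settings).

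Of 9 fitted genes often used as references, 2 were called higher and 2 lower, near the shares of all genes, with a median of -0.28. TIP41 stood at 50.3, 43.5 and 44 FPKM in val1 val2, at 46.9, 38.4 and 40.2 FPKM in val1, at 42.4, 42 and 43.1 FPKM in val2 and at 38.7, 36.7 and 42.9 FPKM in WT, and its interaction was 0.02, with a 95% interval of -0.31 to 0.36. It was picked after its values were seen. The cytoskeletal actin genes ACT2 (-2.21) and ACT8 (-1.70), which resemble each other closely, were lower, and GAPC1, a glycolytic enzyme, was higher (1.83).

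**Figure D4:**
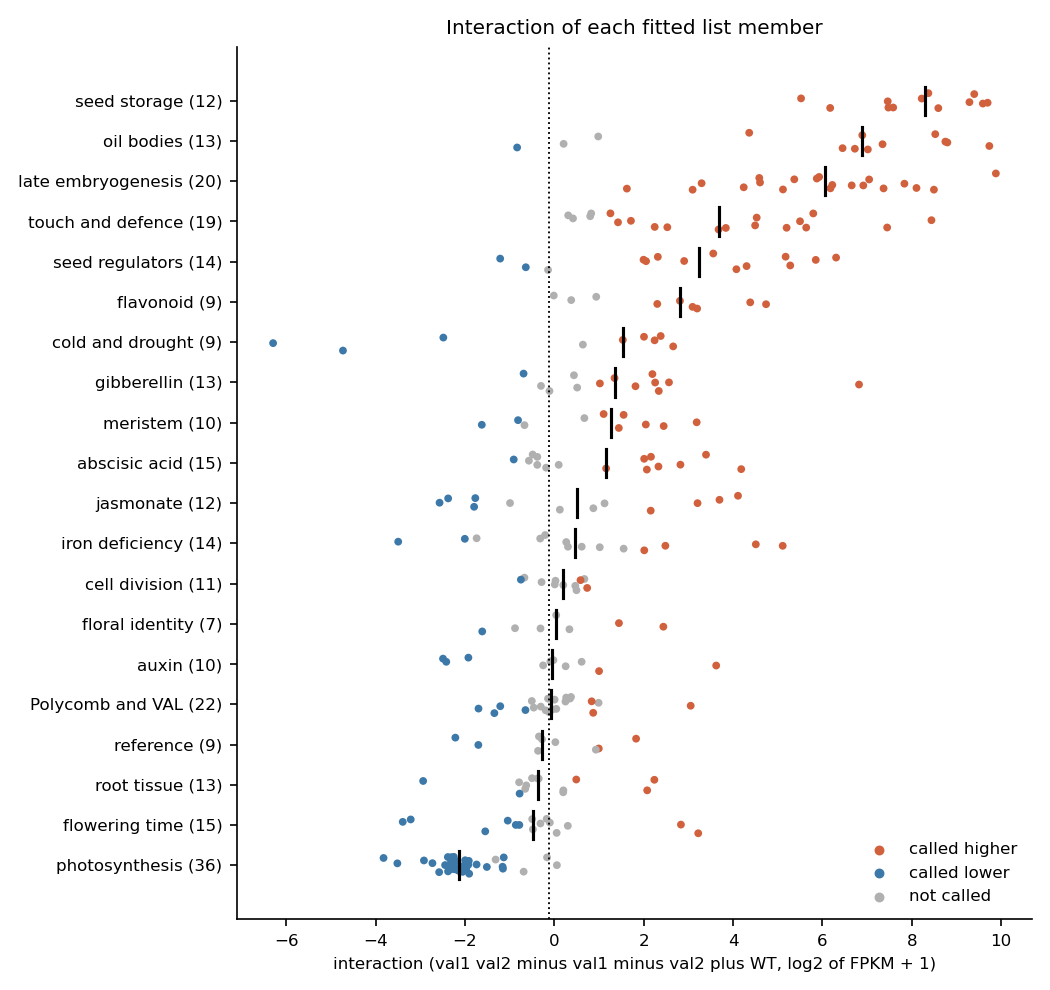
Points are the fitted members of each list (number in brackets) by their interaction in log2 units, coloured by call, with a bar at the list median and a dotted line at the median of all genes, -0.12. The storage, oil body and late embryogenesis lists lie at the right and photosynthesis at the left, with medians of 8.30, 6.89, 6.05 and -2.13.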

How the data were processed

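RNA of 12 whole-seedling libraries was measured by sequencing. The FPKM values were computed and deposited by the authors per library with Cufflinks, per the file headers, as 1 line per assembled locus with its position and no gene name. The submitters' processing notes list Cuffdiff, Cufflinks 2.2.1, MACS2, TopHat2 2.1.1 and TAIR10 without roles, and whether fragments were counted by strand is not given in the sources used here. Titles gave each library its group and replicate number, although the deposited file for val1 replicate 2 carries another number and that for val1 replicate 3 carries none.

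Loci were assigned by position to 27444 protein-coding genes of TAIR10.1. That table served for names, since over 3 parts of each chromosome the medians of the loci's offsets were 68 to 86 bases inside annotated starts and 76 to 88 bases inside annotated ends. A gene's FPKM was the sum over its loci of FPKM times the share of the gene covered. It was missing where a locus covered at least 50% of several genes without the gene making up 75% of it (4319 genes in some library), or where a library had no locus and the remaining replicates both had at least 10 FPKM (196 values in 172 genes). Fits with 2 values in a group used those 2.

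The test was limma 3.58.1 on log2(FPKM + 1) (trend prior, R 4.3.3) in 1 fit of 4 genotype means over all 12 libraries, for 17550 genes with at least 1 FPKM in 3 libraries and 2 values per group. A gene was called where the two-sided p, adjusted by Benjamini-Hochberg, was under 0.05, and fold changes are on the FPKM + 1 scale, which understates those of low genes. The fit was tested on simulated data with 100 planted interactions of 2-fold and 100 of 4-fold. It recovered 34 of the 2-fold and 82 of the 4-fold ones, with 15 calls among 17061 genes without one. A gene that is not called can still hold an interaction, and VAL1, with an estimate of 0.99, was not called. Tables and plots used Python 3.11.15, numpy 2.4.6, pandas 2.3.3, scipy 1.17.1 and matplotlib 3.10.9.

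The 20 lists (341 genes) and the members were chosen with earlier results of these data known, so no count over a list is independent support, and lists are described by counts and medians. Named by rule were the 12 most positive and 12 most negative calls with values in all libraries and a mean of at least 5 FPKM in a genotype, the 3 largest per pattern and per list, and VAL1, VAL2, VAL3 and FLC (87 genes). Others are marked where named. Replicates show the spread between these samples. Promoter motifs were not analysed here. In all, 25 alternative settings were run.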

Additional observations from a re-analysis of the deposited data

Results flagged for a closer look

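Among the named genes, 16 had a loss of VAL1 or VAL2 that was called in 1 direction in the WT background and in the opposite direction in the background of the other mutation. The test of that difference is the interaction itself (limma, adjusted over all 17550 genes), and the contrasts share libraries. Over all fitted genes, 141 of the 318 called higher in val2 (44.3%) and 225 of the 480 called lower (46.9%) reversed in this way in the val1 background. For val1, 85 of the 387 called higher (22.0%) and 97 of the 305 called lower (31.8%) reversed in the val2 background. Over all genes tested, val1 val2 was called lower than val1 at 32.5% and higher at 25.7%. It was called lower than val2 at 34.8% and higher at 25.1%. The 22.0% thus lay below the share of all genes, and the 31.8% was not far above it. On the positive side OLEO4 had an interaction of 8.75, from 2 double-mutant libraries, where losing VAL2 changed the log2 level by 7.47 in val1 and by -1.28 in WT. WRKY53 had 7.45, AT2G35658 had 6.52 and AT5G19130 had 6.01, all 3 with neighbouring loci reaching into them where they were listed at 0. For WRKY53 the neighbouring locus reached in where it was not listed at 0 as well. RAS1 had 4.90, with no neighbouring locus reaching in. F3'H had 4.74, from 2 double-mutant libraries, where losing VAL2 changed the log2 level by 4.10 in val1 and by -0.64 in WT. CYP707A3 had 4.18. FLS1 had 3.20, being lower in val1 and higher in val1 val2 than in WT.

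On the negative side GL2 had -4.16, with a neighbouring locus reaching into it in the 3 WT libraries and in every mutant library too. COR15B had -4.73 and COR15A had -6.29, where losing VAL2 changed the log2 level of COR15A by -1.35 in val1 and by 4.94 in WT. AT2G20670 had -4.76, XTH6 had -4.87 and AT1G66100 had -5.55. AT2G43460 had -5.59, with another locus shape in its high libraries. ASN1 had -6.85, where losing VAL2 changed the log2 level by -5.22 in val1 and by 1.63 in WT, and losing VAL1 changed it by -4.57 in val2 and by 2.28 in WT.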

How the results depend on the processing

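Across 25 alternative settings the interaction was called for 6867 genes (at least 5 FPKM in 3 libraries, 14209 genes tested) to 9594 genes (weights per library), against 8197. Leaving out each library in turn gave 7306 to 9444 calls, 3398 to 4042 higher, 3828 to 5402 lower, 5127 to 6261 of at least 2-fold, 2725 to 3208 above all 3 genotypes, 3073 to 4557 below them and 1235 to 1700 in no pattern. Shared falls ranged over 20 to 111, shared rises over 20 to 64 and opposite single mutants over 1 to 8. Val1 val2 replicate 3 decided the upper ends, with 9444 calls, 111 shared falls, 64 shared rises and 8 opposite cases without it. The exception was the count in no pattern, whose upper end of 1700 came without WT replicate 3. The lower ends came without val1 replicate 3 for all calls (7306), WT replicate 1 for shared falls (20) and val2 replicate 1 for shared rises (20). List members called higher ranged over 120 to 128 and lower over 63 to 72. Adding 5 FPKM gave 3624 calls of at least 2-fold and 5 opposite cases, by construction compressing low genes. Weights per library gave 160 shared falls, 94 shared rises and 13 opposite cases, and weights per genotype gave 140, 92 and 14. Opposite cases numbered 5 after scaling to a common median ratio and 0 under the 5 FPKM filter. That scaling moved the median interaction to 0.03 from -0.12, and 54.4% of its 8180 calls were higher, against 45.8%. Without val1 replicate 1 and val1 val2 replicate 3 together, an alternative added after seeing the data, there were 78 shared falls and 9 opposite cases. Replicate numbers did not pair the samples (correlations of same-numbered deviations of -0.0443 to 0.0629), and the fit with a replicate block called 8057 genes, 7827 of them among the 8197. No interaction of the 87 named genes changed sign, and 83 of them lost no call. CYCB1;2 was lost under 10 settings and KIN1 under 6 (adjusted p 0.0586 to 0.0621), while AT2G33830 (adjusted p = 0.0503) and VAL2 (0.0923) were no longer called when only each gene's largest locus was used. VAL1 was called under 4 settings, with 1.15 after median-ratio scaling, 1.05 for the largest locus, 1.38 without val1 replicate 1, and without both libraries with an unbroken VAL1 locus (adjusted p = 0.00107). The cause of these moves was not tested. The files give no counts, so no limit from depth could be set for genes listed at 0.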

Other observations

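Genes with a large departure lay on all 5 chromosomes in like shares. By chromosome, 15.4% to 16.3% of the fitted genes were at least 2-fold above the product of the single-mutant folds, and 15.4% to 18.1% were at least 2-fold below it, the most on chromosome 2. Of the 2759 genes at least 2-fold higher, 36.5% had a neighbouring gene called higher, against 28.7% of all fitted genes. Of the 2823 at least 2-fold lower, 34.7% had a neighbour called lower, against 29.3%. Neighbouring genes can share an assembled locus, so these shares are given as a description without a test.

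The genes at least 2-fold above were shorter than the fitted set, with a median gene length of 1993 bases, and those at least 2-fold below had a median of 2266 bases, against 2403 bases over all fitted genes. The FPKM of short loci can be inflated, and the part of length in the counts was not tested.

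At 3516 genes the double mutant was called against WT while the interaction was not, and at 1361 genes the reverse held. The second kind includes IMA1, whose level in val1 val2 overlapped WT while val1 alone had no locus.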
